A study of Mus musculus with 12 samples.

Results

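The 10 genes described here encode enzymes that make bile acids from cholesterol in the liver. They are Cyp7a1, Cyp8b1, Cyp27a1, Cyp7b1, Cyp39a1, Hsd3b7, Akr1d1, Amacr, Baat and Slc27a5, and they were picked by gene symbol from a list of known enzymes, with earlier results of these data known. All 10 were found among the 23420 gene symbols that were counted, and all 10 had enough reads to be tested in each comparison. The study asked whether loss of SIAH2, a ubiquitin ligase linked to the circadian clock, alters liver transcripts differently in females and males. Livers were taken at ZT10, late in the light phase, from 3 wild type females (WTF), 3 Siah2 KO females (KOF), 3 wild type males (WTM) and 3 Siah2 KO males (KOM). The mice had a C57BL/6 background, were about 20 weeks of age, ate normal chow and lived under equal light and dark periods. The KO mice were homozygous (Siah2-/-). Both genotypes come from intercrossed heterozygotes that were used to found related homozygous lines, so a difference between genotypes and a difference between lines cannot be told apart. The sample labels speak of RNA pooled from 3 mice, whereas the study's methods describe individual livers and each library bears its own mouse number. Each library is taken here as 1 mouse, and where that is wrong the spread between libraries is not a spread between mice.

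Bile acids are detergents made by hepatocytes, and making them is the main route by which the body disposes of cholesterol. In the classical pathway, CYP7A1 adds a hydroxyl group at carbon 7 of cholesterol and sets the pace. HSD3B7 and then AKR1D1 reshape the sterol ring. Between their steps, CYP8B1 adds a hydroxyl group at carbon 12 that turns the product towards cholic acid. Without that step the product is chenodeoxycholic acid, which mouse liver converts largely to muricholic acids. In the alternative pathway, CYP27A1 first oxidizes the side chain and CYP7B1 then hydroxylates carbon 7, while CYP39A1 does the same for sterols that already carry a hydroxyl group at carbon 24. AMACR flips the side chain so that peroxisomes can shorten it, SLC27A5 joins the bile acid to coenzyme A, and BAAT attaches taurine or glycine. CYP8B1 thus sits at a branch point, and its level relative to the rest of the pathway is known to set how hydrophobic the bile acid pool is. Synthesis is known to be held back by bile acids through FXR (Nr1h4) and SHP (Nr0b2), and to follow a daily rhythm.

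The members lie on 8 chromosomes of the mouse genome (GRCm38.p6 annotation). Cyp8b1 spans chr9:121914356-121916305 and no other annotated gene overlaps it. Cyp7a1 lies at chr4:6265612-6275632, Hsd3b7 at chr7:127800609-127803802 and Cyp27a1 at chr1:74713148-74737897, also without an overlapping gene. Akr1d1 at chr6:37529978-37574921 overlaps a long noncoding RNA gene (Gm33429) and a pseudogene (Gm7463). Cyp7b1 at chr3:18071944-18243890, Cyp39a1 at chr17:43667372-43751431 and Baat at chr4:49489416-49507915 each overlap at least 1 noncoding RNA gene. Only gene spans were compared, not strands or exons. Whether reads of an overlapping gene were counted with any of these 4 genes was not tested. Amacr at chr15:10981756-10996624 and Slc27a5 at chr7:12988346-12998192 overlap none.

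RefSeq promoter sequences were found for 4 of the members, namely Cyp8b1, Cyp27a1, Hsd3b7 and Akr1d1. The 250 bases before the start are shown for Cyp8b1, the member that differed most between genotypes in females, and for Hsd3b7, which acts in the same pathway and whose levels overlapped between all 4 groups. The first lies at chr9:121916306-121916555 on the minus strand and the second at chr7:127800359-127800608 on the plus strand, and both are printed 5′ to 3′ as the gene reads. Capitals mark matches to the motifs searched.
Cyp8b1: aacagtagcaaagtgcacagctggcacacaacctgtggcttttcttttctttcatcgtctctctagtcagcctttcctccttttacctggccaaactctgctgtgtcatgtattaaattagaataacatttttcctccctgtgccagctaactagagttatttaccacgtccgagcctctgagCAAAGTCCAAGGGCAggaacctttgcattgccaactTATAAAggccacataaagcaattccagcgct
Hsd3b7: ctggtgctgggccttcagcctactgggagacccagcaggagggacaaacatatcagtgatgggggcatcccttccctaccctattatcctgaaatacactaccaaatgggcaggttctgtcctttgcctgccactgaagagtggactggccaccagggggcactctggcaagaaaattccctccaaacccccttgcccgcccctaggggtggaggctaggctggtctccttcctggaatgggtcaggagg
The Cyp8b1 sequence held CAAAGTCCA, the core of HNF4A sites, 67 bases before the start. It also held CAAGGNCA, the core of LRH-1 (Nr5a2) sites, 60 bases before the start, and the pair of matches overlap in the run of capitals. A TATAAA box stood 31 bases before the start. These 3 motifs were chosen after the Cyp8b1 sequence had been read, so their presence there is a description. Both strands were searched, except that TATAAA was searched only as the gene reads. Among 32851 promoter windows of the same length, 0.384% held CAAAGTCCA, 5.53% held CAAGGNCA and 7.59% held TATAAA. Also searched were AGGTCA, the core site of nuclear receptors such as REV-ERB and ROR, and CACGTG, the E-box that CLOCK and BMAL1 bind. The 2 D-box forms TTACGTAA and TTATGTAA were searched too. None of these motifs was in the windows of Cyp8b1, Hsd3b7 and Cyp27a1. The Cyp27a1 window (chr1:74713285-74713534) lies wholly inside the gene span given above. Bases before that span were therefore not searched for Cyp27a1. Akr1d1 held AGGTCA 2 times, 232 and 210 bases before the start used for its window. That window (chr6:37529923-37530172) runs into the gene span given above, so the start used lies inside that span. Of all windows, 14.0% held AGGTCA, 6.02% held CACGTG, 0.113% held TTACGTAA and 0.819% held TTATGTAA. A match does not show that a factor binds, and a missing match says only that these letters are not in this window.

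Transcripts were counted by QuantSeq, which reads 1 tag near the 3′ end of each transcript, so that a longer transcript does not yield more reads and levels of different genes can be set side by side. Levels are given in CPM, a library-scaled unit that sets a gene's count against the reads of its library. Only reads of genes that passed edgeR's expression filter over the 12 libraries entered that total. The 12 libraries were scaled to each other by TMM. Between 1293688 and 4056144 reads were counted per mouse. Of these libraries, WTF 1091 stood apart. Across genes, the SD of its log2 differences from the other two wild type females was 0.859 and 0.882, against 0.367 to 0.531 for every other pair of mice in a group, so the main results that use it are also given without it. Siah2 itself, at chr3:58674949-58692439, was read in all 12 mice. Its levels were 11.5 to 17.0 CPM in WTF, 9.63 to 12.5 in KOF, 16.8 to 27.1 in WTM and 9.42 to 17.4 in KOM. The sources used here do not give the part of the gene that the deletion removes, so these 3′ tags cannot check the genotype labels. Hepatocyte markers such as Alb and Ttr (6 of the 7 on the list were in the tables) summed to 24631 to 38981 CPM and none was at 0. In whole liver, fewer cells of a type and less RNA per cell cannot be told apart.

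The members covered a wide range of levels. Slc27a5 was the most abundant in every mouse, with a mean of 1209 CPM over all 12 mice. Cyp27a1 followed with a mean of 434 CPM, then Hsd3b7 with 294, Cyp7a1 with 283, Baat with 169 and Cyp7b1 with 147. Akr1d1, Amacr and Cyp8b1 were lower, with means of 81.8, 80.4 and 52.3 CPM. Cyp39a1 was the lowest with a mean of 18.4 CPM, which rested on as few as 8 reads in 1 mouse. Neighbors in this order often overlapped, since Hsd3b7 and Cyp7a1 covered 226 to 350 and 77.3 to 789 CPM.

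**Figure D1:**
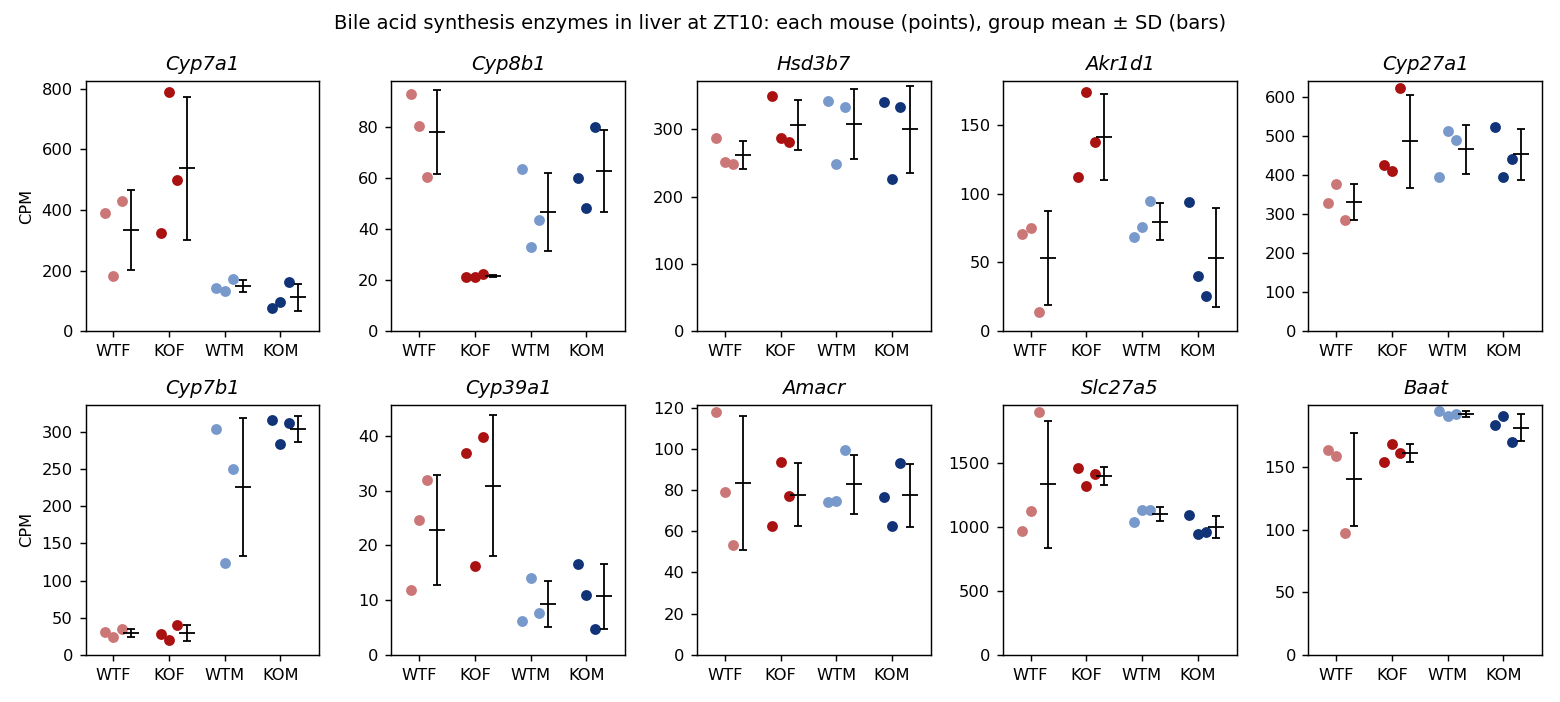
Transcript levels (CPM, vertical axes from 0) of the 10 enzymes in each of 12 livers (points), by group (WTF and KOF, wild type and Siah2 KO females; WTM and KOM, the same in males), with the mean and SD of each group as a bar. The 3 KOF values of Cyp8b1 lie between 21.4 and 22.3 CPM, under every other mouse, and the Cyp7b1 values of both female groups reach at most 40.3 CPM while every male is at 123 CPM or more.

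Cyp8b1, the sterol 12-alpha-hydroxylase, was read at 93.1, 80.4 and 60.5 CPM in WTF and at 21.4, 21.4 and 22.3 CPM in KOF. The male values were 63.5, 33.2 and 43.6 CPM in WTM and 59.9, 48.2 and 80.1 CPM in KOM. Every KOF mouse was thus below every other mouse of the study, and the 3 KOF mice were nearly alike. Their SD of 0.523 CPM was smaller than the 3.00 CPM that counting alone gives. The fitted level was 3.63-fold lower in KOF than in WTF (log2 fold change −1.86, SE 0.25). With edgeR's quasi-likelihood test the adjusted p was 0.0674, just above the threshold of 0.05, and Cyp8b1 ranked 3 of 9465 genes by p. At that threshold edgeR called none of these genes (0%), whereas an unadjusted p under 0.05 was reached by 1478 of them, or 15.6%. DESeq2 gave Cyp8b1 an adjusted p of 2.43e-06 and called 3.70% of the genes it adjusted. Without WTF 1091, edgeR gave a log2 fold change of −2.00 (SE 0.19) with an adjusted p of 0.00104 and called 9.64% of genes. Of the other 5 mice in this comparison, leaving out any 1 kept the direction but did not pass the test, with adjusted p-values up to 0.351. The summed level of 4 endothelial markers also differed between these groups, at 195 to 298 CPM in WTF and 173 to 189 CPM in KOF, and was highest in WTF 1091. Hepatocyte markers overlapped (34094 to 38981 against 28265 to 37498 CPM). The part that other cell types have in the Cyp8b1 difference was not tested.

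The enzymes that act beside CYP8B1 in the classical pathway did not follow it. Cyp7a1, the rate-limiting enzyme, was read at 389, 182 and 428 CPM in WTF and at 323, 789 and 500 CPM in KOF. The groups overlapped, and the log2 fold change was 0.68 (SE 0.39, adjusted p = 0.446). Its 95% interval ran from −0.09 to 1.45 and so did not include a fall of the size seen for Cyp8b1. Without WTF 1091 the change was 0.91, with an interval from 0.18 to 1.65 (adjusted p = 0.147). Hsd3b7, which oxidizes the 7-alpha-hydroxylated sterol, was read at 287, 251 and 248 CPM in WTF and at 350, 288 and 282 CPM in KOF (log2 fold change 0.21, SE 0.22).

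Akr1d1, the 5-beta-reductase that bends the ring system, was read at 70.4, 75.3 and 14.0 CPM in WTF and at 112, 174 and 138 CPM in KOF. Every KOF mouse was above every WTF mouse, and WTF 1091 was the lowest of all 12 mice. The log2 fold change was 1.39 (SE 0.50), with an unadjusted p of 0.0185 but an adjusted p of 0.214 from edgeR and 0.0633 from DESeq2. With WTF 1091 left out, the rise was smaller, at 0.95 (SE 0.22), and passed the edgeR test with an adjusted p of 0.0223. With all 6 females and no filter beyond 1 count, Akr1d1 also passed the edgeR test, at 1.41 (adjusted p = 4.58e-04). The size of the Akr1d1 change in females thus moved with that library, and its call moved with that library and with the filter.

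In the alternative pathway, Cyp27a1 was read at 330, 377 and 284 CPM in WTF and at 425, 409 and 624 CPM in KOF. These values did not overlap, but the log2 fold change of 0.54 (SE 0.25) did not pass the test (adjusted p = 0.342). Cyp7b1, the oxysterol 7-alpha-hydroxylase, was read at 31.0, 23.7 and 34.7 CPM in WTF and at 27.9, 20.3 and 40.3 CPM in KOF, and its log2 fold change was −0.04 (SE 0.30). Cyp39a1 ranged from 11.9 to 31.9 CPM in WTF and from 16.2 to 39.7 CPM in KOF, with a log2 fold change of 0.41 (SE 0.42). Without WTF 1091 the log2 fold changes were 0.46 for Cyp27a1, 0.08 for Cyp7b1 and 0.73 for Cyp39a1, and none passed.

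None of the enzymes of the side chain and of conjugation passed the test in females. Amacr, the racemase, ranged from 53.2 to 118 CPM in WTF and from 62.8 to 93.5 CPM in KOF, with a log2 fold change of −0.11 (SE 0.31). Slc27a5, the bile acid-CoA ligase, ranged from 972 to 1903 CPM in WTF, the top value being WTF 1091, and from 1321 to 1463 CPM in KOF. Baat, the amino acid transferase, ranged from 97.5 to 164 CPM in WTF, the bottom value again being WTF 1091, and from 154 to 169 CPM in KOF. The log2 fold changes were 0.06 (SE 0.29) for Slc27a5 and 0.19 (SE 0.25) for Baat. With WTF 1091 left out, the log2 fold changes were −0.34 for Amacr, 0.42 (SE 0.18, adjusted p = 0.158) for Slc27a5 and −0.0019 for Baat, and the remaining Slc27a5 values did not overlap.

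Among the 10 members, 7 were higher and 3 lower in KOF, with a median log2 fold change of 0.20, against −0.03 over all 9465 genes. None passed edgeR's adjusted test, as for all genes (0%), and 1, Cyp8b1, passed DESeq2's, against 3.70% of the genes it adjusted. Both Cyp8b1 and Akr1d1 had an unadjusted p under 0.05, as did 15.6% of all genes. The WTF and KOF values of 3 members (Cyp8b1, Akr1d1 and Cyp27a1) did not overlap, which is a share close to the 23.3% of all genes tested. The median size of a change, whichever its sign, was 0.31 for the members and 0.34 for all genes, so the members' typical change was no larger than that of other genes. Without WTF 1091, edgeR called 2 members, Cyp8b1 and Akr1d1, against 9.64% of all genes. In that fit 4 members had an unadjusted p under 0.05 (Cyp7a1 and Slc27a5 as well), against 26.6% of all genes. The remaining values of 4 members did not overlap, against 42.6% of genes, and the median size of a change was 0.44 for the members and 0.37 for all genes.

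In males no member passed the test. The fitted log2 fold change of Cyp8b1 in KOM relative to WTM was 0.45 (SE 0.25), opposite in sign to that in females, and the groups overlapped. The other 9 members ranged from −0.62 (SE 0.35) for Akr1d1 to 0.43 (SE 0.24) for Cyp7b1, and the change in Cyp7a1 was −0.42 (SE 0.24). Akr1d1 was read at 68.8, 75.4 and 94.4 CPM in WTM and at 93.9, 40.4 and 25.6 CPM in KOM. Its change in males rested on single mice, as it was −1.29 without KOM 1075 and −0.25 without KOM 1081, and passed in neither case. All 10 members had an adjusted p of 0.9999, and none had an unadjusted p under 0.05. This was also so for nearly all genes, since edgeR called 0% of 8823 genes, DESeq2 called 0.0370%, and 4.05% had an unadjusted p under 0.05. No member's groups were separate in males, against 8.87% of all genes. A median log2 fold change of −0.07 was found for the members and −0.01 for all genes.

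Whether the genotype difference itself differed between the sexes was tested in all 12 mice, by subtracting the male change from the female change. Cyp8b1 was the only member that passed, with a difference of −2.29 on the log2 scale (SE 0.37, adjusted p = 0.0460), and it had the smallest p of 9806 genes. This test called 25 genes, or 0.255%. DESeq2 also called Cyp8b1 (adjusted p = 2.34e-05) and 3.89% of the genes it adjusted. Without WTF 1091 the difference was −2.45 (SE 0.34, adjusted p = 0.00234), with 5.15% of genes called. The edgeR call was nevertheless close to the threshold. Leaving out 1 mouse at a time gave differences from −2.54 to −2.09 and kept the direction in all 12 cases, but the call was kept in only 3 of them, when WTF 1090, WTF 1091 or WTM 1055 was left out. The adjusted p reached at most 0.146. Akr1d1 differed in the other direction by 2.00 (SE 0.69, adjusted p = 0.194) and Cyp7a1 by 1.10 (SE 0.50, adjusted p = 0.342). For Akr1d1, leaving out 1 mouse gave differences from 1.57 (without WTF 1091) to 2.68 (without KOM 1075), and none passed edgeR's test. Akr1d1 did pass with no filter beyond 1 count (1.99, adjusted p = 3.28e-05) and in DESeq2 with WTF 1091 left out (1.56, adjusted p = 0.0250). In the latter fit Slc27a5 passed too (0.57, adjusted p = 0.0380). With all 12 mice in edgeR, Cyp8b1, Akr1d1 and Cyp7a1 had an unadjusted p under 0.05, as did 14.1% of all genes. Without WTF 1091, 4 members did (Slc27a5 as well), against 20.1% of genes. With all 12 mice, the other 7 members lay between −0.47 for Cyp7b1 and 0.60 for Cyp27a1. Since this test uses the same mice as the comparisons within each sex, it is not separate evidence.

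**Figure D2:**
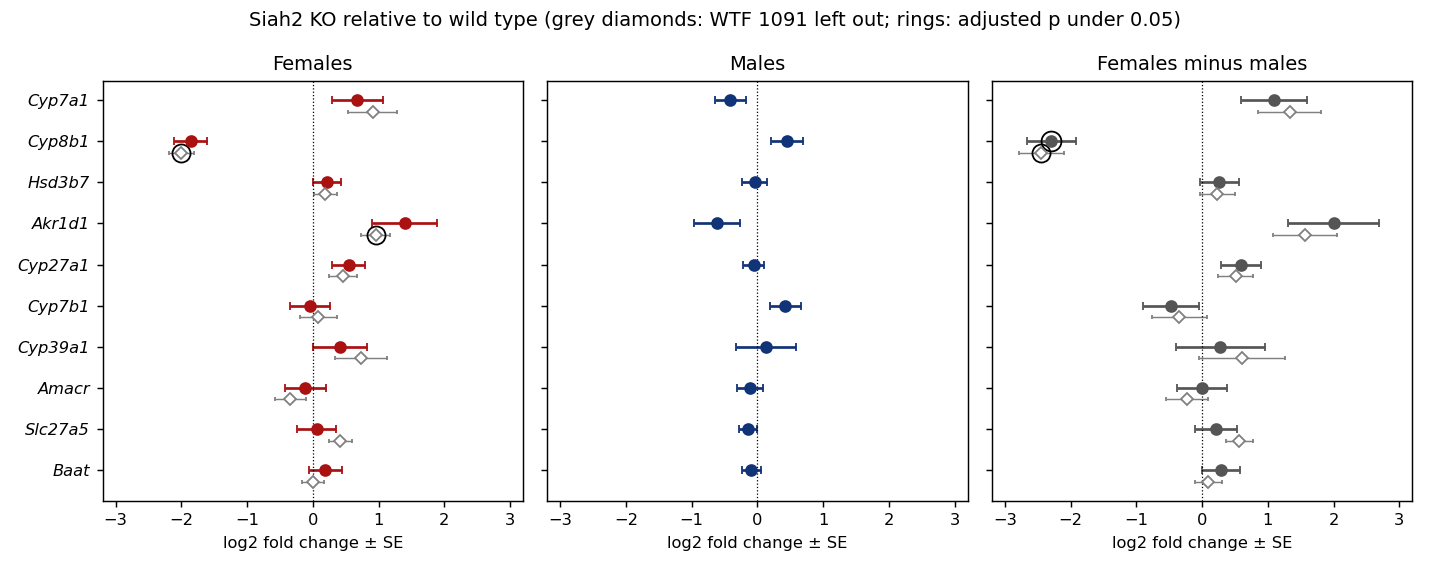
Log2 fold change of each enzyme in Siah2 KO relative to wild type mice (horizontal axis, with SE bars from edgeR) in females, in males and as the female minus the male change, with grey diamonds for fits without WTF 1091 and rings for an adjusted p under 0.05. Cyp8b1 lies far left of 0 in females (−1.86) and in the difference (−2.29) but not in males (0.45), and Akr1d1 is the member farthest to the right in females (1.39).

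The place of Cyp8b1 against the rest of the pathway was also read within each library, where scaling between libraries cancels. These ratios are given without a test, because Cyp8b1 was known to be low in KOF. For each Cyp8b1 read, there were 4.17, 2.27 and 7.06 Cyp7a1 reads in WTF and 15.0, 36.6 and 22.1 in KOF. In males there were 2.26, 3.93 and 3.93 in WTM and 1.29, 1.99 and 2.03 in KOM. Every KOF mouse was above, and every KOM mouse below, all 6 wild type mice, although the gap between the KOM and wild type mice was narrow. On the log2 scale, the ratio of Cyp8b1 to Cyp7a1 was −2.02 ± 0.82 (SD, n = 3) in WTF, −4.52 ± 0.64 in KOF, −1.71 ± 0.46 in WTM and −0.79 ± 0.37 in KOM. Against the summed reads of the other 9 members, it was −5.06 ± 0.54 in WTF, −7.18 ± 0.07 in KOF, −5.85 ± 0.46 in WTM and −5.34 ± 0.32 in KOM. Cyp8b1 thus made up 1.92% to 3.78% of the members' reads in WTF and 0.647% to 0.718% in KOF, and 1.31% to 3.10% in the males. The summed level of all 10 members was 2380 to 3155 CPM in WTF and 2975 to 3301 CPM in KOF. Slc27a5 alone gave 39.4% to 60.3% of the members' reads in WTF, the top share being WTF 1091, and 40.0% to 49.2% in KOF. It therefore weighed most in this sum and in the ratio to the other 9 members. Cyp8b1 was too small a part for the sum to show its lower level.

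**Figure D3:**
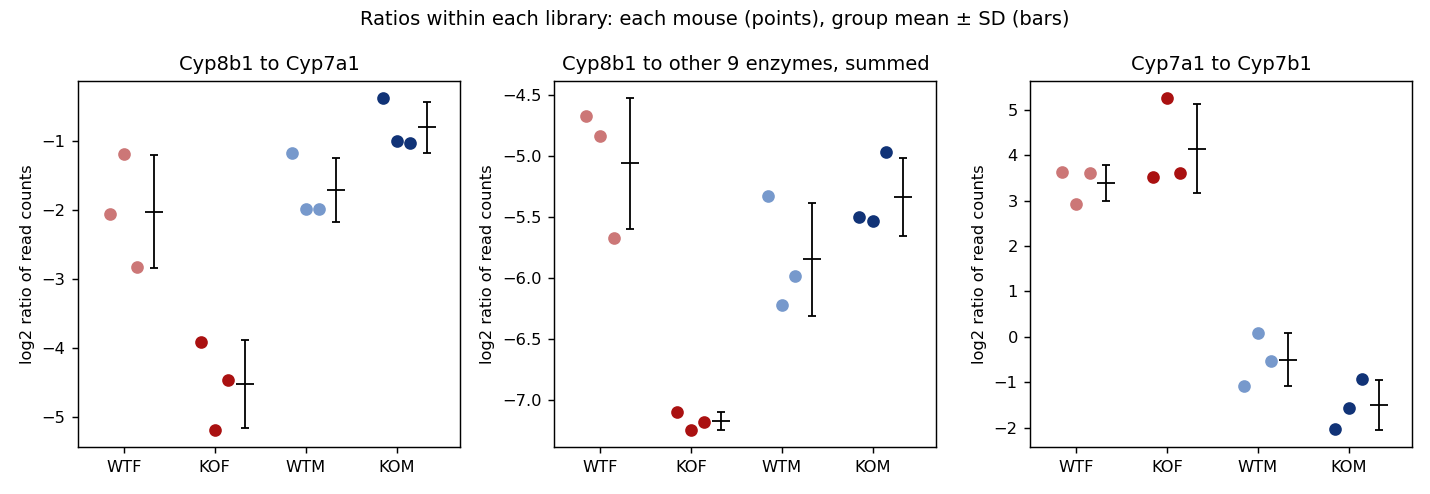
Log2 ratios of read counts within each library (vertical axes), by mouse (points) and group, with the mean and SD of each group as a bar. KOF mice have the lowest ratio of Cyp8b1 to Cyp7a1 (mean −4.52) and to the other 9 enzymes summed (mean −7.18), and the ratio of Cyp7a1 to Cyp7b1 separates females (means 3.40 and 4.14) from males (means −0.51 and −1.51).

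Comparing the sexes shows how these enzymes differ in normal liver, where several liver genes are known to be sex-dependent. In wild type mice, Cyp7b1 was the only member that passed edgeR's test. It was read at 31.0, 23.7 and 34.7 CPM in WTF and at 304, 123 and 250 CPM in WTM, a 7.36-fold lower level in females (log2 fold difference −2.88, SE 0.36, adjusted p = 0.00283). Every female was below every male. The test called 1.39% of 9335 genes in this comparison. Cyp7a1 was higher in each WTF mouse than in each WTM mouse (144, 131 and 172 CPM). Its log2 difference of 1.20 (SE 0.33) did not pass edgeR's test (adjusted p = 0.130) but passed DESeq2's (adjusted p = 0.0336), which called 3.74% of genes. Cyp39a1, at 6.12, 14.1 and 7.74 CPM in WTM, differed by 1.32 (SE 0.44, adjusted p = 0.195). Cyp8b1 differed by 0.78 (SE 0.29, adjusted p = 0.235), and with WTF 1091 left out by 0.92 (SE 0.25, adjusted p = 0.0488), in a fit that called 7.73% of genes. In all, 4 members had an unadjusted p under 0.05, against 15.2% of all genes, and 4 members (Cyp7b1, Cyp7a1, Cyp27a1 and Baat) had groups that did not overlap, against 22.7%. The median size of the sex difference was 0.52 for the members and 0.35 for all genes, but without WTF 1091 it was 0.32 and 0.38. In that fit edgeR called Cyp7b1 (−3.04) and Cyp8b1, Cyp7a1 differed by 0.94 (adjusted p = 0.0648), 4 members had an unadjusted p under 0.05, against 24.7% of genes, and 5 had values that did not overlap, against 41.7%.

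In Siah2 KO mice, edgeR called a sex difference for 6 of the 10 members and for 11.5% of 9102 genes. Cyp7b1 was again far lower in females, by 10.5-fold (log2 difference −3.40, SE 0.21, adjusted p = 6.77e-08), with 316, 284 and 312 CPM in KOM. Cyp7a1 was 4.77-fold higher in females (2.26, SE 0.30, adjusted p = 2.19e-04), with 77.3, 95.9 and 163 CPM in KOM. Cyp8b1 was 2.91-fold lower in KOF than in KOM (−1.54, SE 0.21, adjusted p = 3.02e-04). Its sex difference thus had the sign opposite to that in wild type mice, and the test above of the genotype difference between the sexes is also the test of this contrast. Akr1d1 was higher in females by 1.43 (SE 0.34, adjusted p = 0.0144), a call that DESeq2 did not make (adjusted p = 0.113). Leaving out 1 mouse moved this difference from 1.07 (without KOM 1081) to 2.12 (without KOM 1075), and the call was lost when KOF 1104, KOM 1076 or KOM 1081 was left out. Cyp39a1 was higher by 1.57 (SE 0.40, adjusted p = 0.0207) and Slc27a5 by 0.49 (SE 0.15, adjusted p = 0.0454). These last 3 calls were less stable, since a fit of all 12 mice called only the other 3 members and leaving out 1 mouse left between 3 and 5 calls. Slc27a5 passed in 0 of the 6 fits that left out 1 mouse (adjusted p from 0.0501 to 0.164), and Cyp39a1 passed in 2 of them. DESeq2 called 5 members and 8.40% of genes. An unadjusted p under 0.05 was found for the same number of members, 6, and for 26.1% of genes, and 6 members had groups that did not overlap, against 30.7% of genes. Hsd3b7, Amacr, Cyp27a1 and Baat lay between −0.17 (Baat) and 0.10 (Cyp27a1), and none of them passed. The median size of the sex difference in KO mice was 0.96 for the members and 0.32 for all genes.

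Markers of other cells also differed between the sexes. The summed level of the Kupffer and immune markers (5 of 6 in the tables) was 311 to 431 CPM in WTF and 55.1 to 275 CPM in WTM, and 251 to 408 CPM in KOF and 70.7 to 148 CPM in KOM. Endothelial markers summed to 161 to 181 CPM in WTM and 146 to 161 CPM in KOM, below the females of the same genotype. Of the red blood cell list, 4 of 6 genes were in the tables and the 3 globins among them were at 0 in all mice, so its sum is that of Alas2, at 8.47 to 25.2 CPM in females and 83.9 to 154 CPM in males. Bile duct markers were at 9.87 to 45.1 CPM in WTF, the lowest being WTF 1091, and at 47.4 to 56.3 CPM in WTM, and they overlapped in the KO mice. The part of these markers in the sex differences was not tested. Markers of stellate cells (102 to 301 CPM), pancreatic acinar cells (10.8 to 57.4), fat (0 to 26.4, highest in KOM) and small intestine (0 to 2.01) overlapped or stayed low.

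**Figure D4:**
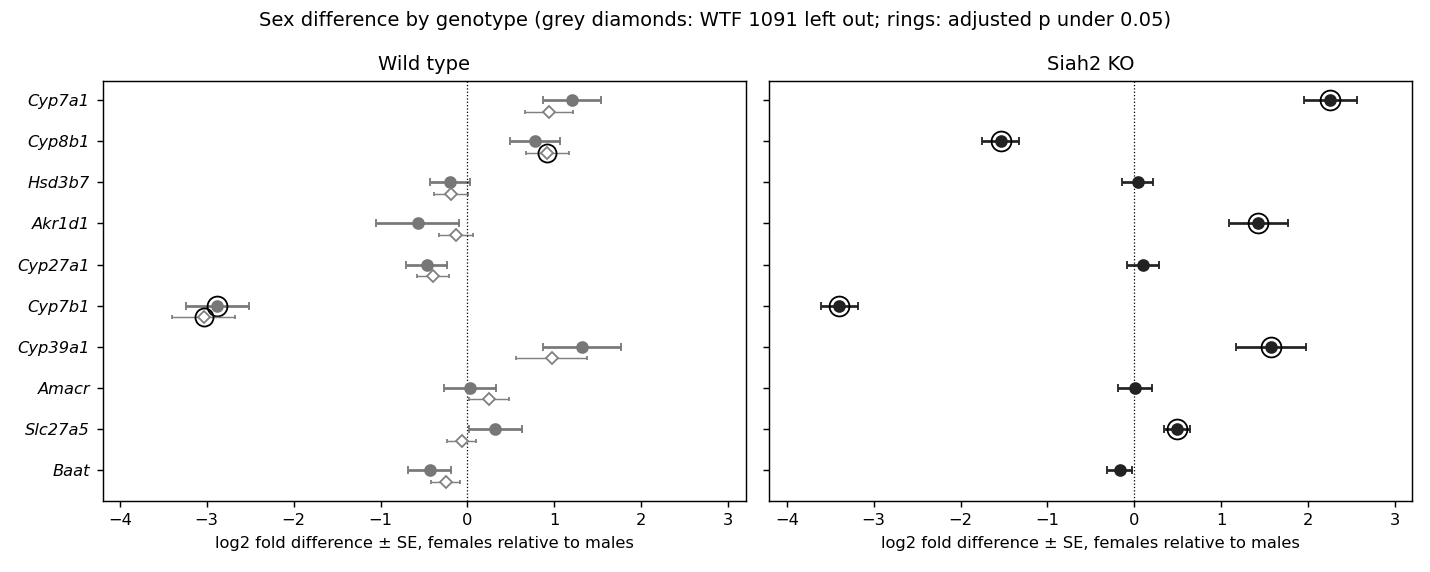
Log2 fold difference of each enzyme in females relative to males (horizontal axis, with SE bars from edgeR) in wild type and in Siah2 KO mice, with grey diamonds for the wild type fit without WTF 1091 and rings for an adjusted p under 0.05. Cyp7b1 lies far left of 0 in both genotypes (−2.88 and −3.40), Cyp7a1 lies to the right in both (1.20 and 2.26), and Cyp8b1 is to the right in wild type (0.78) and to the left in KO mice (−1.54).

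The balance of the classical against the alternative 7-alpha-hydroxylase followed these sex differences. In a ratio chosen after the values were seen, there were 12.5, 7.65 and 12.3 Cyp7a1 reads for each Cyp7b1 read in WTF and 11.5, 38.6 and 12.3 in KOF. The same ratio was 0.474, 1.07 and 0.687 in WTM and 0.245, 0.338 and 0.522 in KOM. All females thus had more reads of Cyp7a1 than of Cyp7b1, and 5 of the 6 males had fewer.

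Other genes of bile acid metabolism were taken as lists. Of 10 further enzymes, 8 were tested. In females 0 passed edgeR's test (0% of all genes did) or DESeq2's (3.70% of the genes it adjusted did). In that comparison 0 had an unadjusted p under 0.05, against 15.6% of all genes. Scp2, a carrier and thiolase of peroxisomal side chain shortening, was at 700 to 781 CPM in WTF and 515 to 626 CPM in KOF. It was at 1148 to 1423 CPM in WTM and 1555 to 1695 CPM in KOM. Subtracting the male from the female change gave a difference that did not pass edgeR's test (−0.69, SE 0.25, adjusted p = 0.209), but DESeq2 called it (adjusted p = 0.0252). Between KOF and KOM, Scp2 was the only one of the 8 called (11.5% of all genes were), lower in females (−1.48, SE 0.15, adjusted p = 1.56e-05). Between WTF and WTM it was lower by a log2 difference of −0.76 (SE 0.23), which passed DESeq2's test (adjusted p = 0.0203) and not edgeR's (adjusted p = 0.165), and without WTF 1091 it passed edgeR's too (−0.79, SE 0.18, adjusted p = 0.0222).

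Among 17 regulators of bile acid synthesis, 16 were tested, 5 were higher and 11 lower in KOF, with a median log2 fold change of −0.34 against −0.03 over all genes. No regulator passed the adjusted test of edgeR (0% of all genes did) or DESeq2 (3.70% of the genes it adjusted did). Among them, 6 had an unadjusted p under 0.05, of which 4 were lower and 2 higher. Of all genes, 15.6% had such a p. Nr0b2, the corepressor SHP that is itself induced by bile acids, was read at 17.7, 10.8 and 3.19 CPM in WTF and at 2.44, 1.47 and 4.82 CPM in KOF. Its log2 fold change was −1.95 (SE 0.65, adjusted p = 0.199). Fgfr4, the hepatocyte receptor for the intestinal hormone FGF15, was read at 15.9, 12.6 and 6.05 CPM in WTF and at 4.60, 1.84 and 5.42 CPM in KOF (−1.57, SE 0.50, adjusted p = 0.182). WTF 1091 had the lowest wild type female value of both genes. When it was left out, edgeR called both, Nr0b2 at −2.39 (SE 0.46, adjusted p = 0.0121) and Fgfr4 at −1.87 (SE 0.41, adjusted p = 0.0198), and with them Tef, a D-box activator that is named after its values were seen, so that 3 of 16 were called, against 9.64% of all genes. The same 3 were called without that mouse in the difference between the sexes, where 5.15% of all genes were. Both rest on few reads, between 4 and 49 per mouse. Hlf, a clock-driven activator at D-boxes, was at 99.6 to 141 CPM in WTF and 169 to 202 CPM in KOF (0.63, SE 0.23, adjusted p = 0.216). Nfil3, a repressor at D-boxes, was at 6.86 to 13.1 and 4.05 to 7.22 CPM (−0.97, SE 0.39, adjusted p = 0.268). In males, 1 regulator had an unadjusted p under 0.05, against 4.05% of all genes, and edgeR called 0, as for all genes (0%). Between WTF and WTM 0 of 16 were called, against 1.39% of all genes. Without WTF 1091, 2 of 16 were called, against 7.73% of all genes, with Fgfr4 higher in females (1.28) and Tef lower. Between KOF and KOM 4 of 16 were called, against 11.5% of all genes. Nr0b2 (−1.82) and Hnf4a (−0.63) were lower in females, and Nr1h4 (0.59) and Ppargc1a (0.85) were higher.

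Of 14 bile acid and biliary lipid transporters, 12 were tested in females, 3 were higher and 9 lower. Their median log2 fold change was −0.30, against −0.03 over all genes. None passed edgeR's test, as for all genes (0%). DESeq2 called 1, Abcb4, the canalicular exporter of phosphatidylcholine, against 3.70% of the genes it adjusted. Abcb4 was read at 320, 407 and 257 CPM in WTF and at 119, 183 and 208 CPM in KOF, without overlap (−0.96, SE 0.28, adjusted p = 0.156 in edgeR). Without WTF 1091, edgeR called 3 of 12, all lower, against 9.64% of all genes. They were Abcb4 (−1.10), the canalicular exporter Abcc2 (−0.90) and the uptake carrier Slco1b2 (−0.66). The same 3 were called without that mouse in the female change minus the male change, where 5.15% of all genes were. With all 12 mice, edgeR called 0 of 12 for that difference, against 0.255% of all genes. DESeq2 called 1 for it, Slco1b2 (adjusted p = 0.0345), against 3.89% of the genes it adjusted. In males edgeR called 0 of 11, as for all genes (0%). Between wild type sexes, 1 of 12 was called, the uptake carrier Slco1a1, at 28.5 to 63.5 CPM in WTF and 213 to 351 CPM in WTM (−2.87, SE 0.37, adjusted p = 0.00322), against 1.39% of all genes. DESeq2 called 2, against 3.74% of the genes it adjusted. Of these 2, the uptake carrier Slco1a4 was higher in females (1.35 and adjusted p = 0.0671 in edgeR, adjusted p = 0.00459 in DESeq2). Without WTF 1091, edgeR called 3, as Slco1a4 (1.07, adjusted p = 0.0199) and the uptake carrier Slc10a1 (0.96, adjusted p = 0.0104) were higher in females, against 7.73% of all genes. Between the KO sexes, 6 of 11 were called, against 11.5% of all genes. Slco1a1 was lower in females (−4.69, SE 0.58), and Slco1a4, which was higher in females (1.75, SE 0.17), was the call with the smallest adjusted p (9.02e-06).

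The genes whose pattern over the 12 mice was most like that of Cyp8b1 were sought by the correlation of log2 CPM among 6716 genes whose mean was 10 CPM or more. The 5 highest were Gpx1 (Pearson r = 0.94), Szrd1 (0.94), D930015E06Rik (0.93), Agpat3 (0.93) and Smagp (0.93). Gpx1, a glutathione peroxidase, was at 4039 to 4572 CPM in WTF, 2319 to 2624 CPM in KOF, 2835 to 3927 CPM in WTM and 3497 to 3752 CPM in KOM. The 5 most opposite were Pccb (−0.94), 2610001J05Rik (−0.89), Mb21d2 (−0.89), St3gal4 (−0.89) and Cd1d1 (−0.89). Pccb, a subunit of propionyl-CoA carboxylase, was at 172 to 189 CPM in WTF and 231 to 244 CPM in KOF. The other members lay between −0.60 for Akr1d1 and 0.31 for Cyp7b1, so no other bile acid enzyme was among the genes most like Cyp8b1. Without WTF 1091, r was 0.92 to 0.95 for the same 5 high genes, which then ranked from 3 to 11 from the top. It was −0.95 to −0.89 for the same 5 opposite genes, which ranked from 1 to 28 from the bottom. The members lay between −0.85 for Slc27a5 and 0.38 for Amacr. Slc27a5 then ranked 64 from the bottom of 6716 genes, whereas its r with all 12 mice was −0.47. These correlations are over 12 mice that share 4 groups, and they are descriptions.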

How the data were processed

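On BaseSpace (Illumina), the authors trimmed the reads, mapped them and counted them by gene symbol. The deposited values are raw counts per mouse, in a table per sex with the same symbols. The submitters' processing notes name STAR, DESeq and mm10. Comparisons of the authors in the tables were not used. The tables were joined by symbol, and columns were matched to mice by the number in their names.

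Each comparison used edgeR 4.0.16 in R 4.3.3 (filterByExpr, TMM, quasi-likelihood F test, two-sided) over all genes, adjusted by Benjamini-Hochberg and called below 0.05. SEs are those implied by the test statistic, and 95% intervals are 1.96 SE. Alternatives were DESeq2 1.42.0 (the study's tool), limma-voom (limma 3.58.1), RLE scaling, all 12 mice in 1 fit, a filter of 10 counts in every library, no filter beyond 1 count, libraries thinned to the smallest, and each mouse left out. DESeq2 with WTF 1091 left out was added after the data were seen. The edgeR and DESeq2 steps were tested on simulated data. Ratios added 0.5 to each count, and log2 CPM used a prior count of 3. Python 3.11.15 made the tables (pandas 2.3.3, numpy 2.4.6) and the figures (matplotlib 3.10.9).

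The members, lists and tests were chosen with earlier results of these data known. Named were all members, Siah2, the 5 genes most and least like Cyp8b1, and up to 4 genes per list and comparison with the smallest unadjusted p under 0.05. Mouse numbers are unique, so no paired comparison was made. Reads had no molecular identifiers, and counting errors cover counting only. Total counts per mouse ranged from 1293688 to 4056144. Positions and promoters came from RefSeq (GRCm38.p6, the assembly also called mm10).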

Additional observations from a re-analysis of the deposited data

Results flagged for a closer look

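One result of the enzymes met the rule for a difference between groups. The change of Cyp8b1 with Siah2 KO in females minus that in males was −2.29 on the log2 scale (SE 0.37, adjusted p = 0.0460 in edgeR), from −1.86 in females and 0.45 in males. All 3 KOF mice were below all 3 WTF mice, while KOM and WTM mice overlapped. With 3 mice per group, samples far from the rest of their group were not tested for.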

How the results depend on the processing

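Cyp8b1 kept its direction in each comparison under all alternatives. The number of genes called among all genes moved with the setting too. In females, edgeR called no member and 0 of 9465 genes. DESeq2 called 1 member and 303 of 8185 genes, and the fit of all 12 mice 1 member and 427 of 9806 genes. With no filter beyond 1 count, 2 members and 484 of 17177 genes were called. DESeq2 with WTF 1091 left out called 2 members and 786 of 8116 genes. Cyp8b1 then passed at −1.85 (DESeq2, no filter and all 12 mice) and −1.99 (DESeq2 with WTF 1091 left out), with adjusted p-values from 9.13e-10 to 0.00534. Leaving out 1 mouse at a time gave 0 to 2 members and −2.00 to −1.72 for Cyp8b1. The 2 calls came without WTF 1091, where 936 of 9709 genes were called. For the difference between the sexes, the single call (all genes: 25 of 9806) became 2 with no filter (325 of 17874). It became 3 by DESeq2 with WTF 1091 left out (622 of 7787), namely Cyp8b1, Akr1d1 and Slc27a5 (0.57, adjusted p = 0.0380). With 1 mouse left out, 0 to 1 members and 0 to 522 genes were called, and Cyp8b1 ranged from −2.54 to −2.09. Between wild type sexes, the 1 call (all genes: 130 of 9335) became 2 by DESeq2 (338 of 9037) and 3 with no filter (536 of 16902). It became 3 by DESeq2 with WTF 1091 left out (739 of 6344), with Cyp8b1 then passing at 0.89. With 1 mouse left out, 1 to 2 members and 43 to 740 genes were called, and Cyp8b1 ranged from 0.58 to 1.04. Between KO sexes, the 6 calls (all genes: 1044 of 9102) became 3 in the fit of all 12 mice (352 of 9806). With 1 mouse left out, 3 to 5 members and 486 to 1056 genes were called.

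Only small differences changed sign, and none of them passed a test. Those of Amacr between the sexes of wild type mice were −0.011 by DESeq2 and −0.028 by limma-voom, and between KO sexes −0.013 by DESeq2 and with no filter, −0.012 by limma-voom and −0.058 with thinned libraries. Its difference between the sexes in the genotype change was 0.0044 by DESeq2, 0.064 by limma-voom and 0.0045 with RLE scaling. Cyp7b1 in females was 0.14 with thinned libraries and 0.10 by DESeq2 with WTF 1091 left out, Cyp39a1 in males was −0.060 by limma-voom, and Slc27a5 between wild type sexes was −0.089 by DESeq2 with WTF 1091 left out. With 1 mouse left out, the ranges that crossed 0 in females were −0.33 to 0.17 for Cyp7b1, −0.34 to 0.21 for Amacr, −0.0019 to 0.31 for Baat and −0.13 to 0.42 for Slc27a5. In males they were −0.15 to 0.041 for Cyp27a1, −0.33 to 0.56 for Cyp39a1, −0.16 to 0.13 for Hsd3b7 and −0.26 to 0.058 for Amacr. For the difference between the sexes they were −0.16 to 0.75 for Cyp39a1 and −0.23 to 0.33 for Amacr. Between wild type sexes they were −0.32 to 0.25 for Amacr and −0.065 to 0.46 for Slc27a5. Between KO sexes they were −0.12 to 0.22 for Cyp27a1, −0.13 to 0.13 for Hsd3b7 and −0.15 to 0.16 for Amacr. The cause of these changes was not tested. No paired analysis was possible because mouse numbers are not shared between groups.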
